A study of Mus musculus with 16 samples.

Results

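Mitochondrial ribosomal proteins are encoded in the nucleus, made in the cytosol and imported into mitochondria, where they assemble with mitochondrial ribosomal RNA into the ribosome that translates the mRNAs of the mitochondrial genome. The members described here are the genes whose Ensembl gene ID mapped to a symbol made of Mrpl (large subunit) or Mrps (small subunit), digits and at most 1 lower-case letter. There were 78 such genes among 55414 gene rows, 49 named for the large subunit and 29 for the small subunit. A filter on low counts kept 77 of them for testing, 48 large and 29 small, among 25081 genes in all. Mrpl53 was the member left out, with 0 counts in each of the 16 files; 88.0% of its annotated exonic bases overlap those of other genes.

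The study followed mRNA levels after transcription was stopped with 5 µM actinomycin D, in cells labelled Nat10-deficient (titles "Nat10-/-") and WT, at 0, 1, 3 and 5 h, with 2 files for each genotype and time. Nat10 is the acetyltransferase that places N4-acetylcytidine on RNA, and the study asked how this mark and Nat10 binding affect mRNA half-life. Both genotypes came from mouse bone marrow depleted of lineage-positive cells and cultured in serum-free medium with 10 ng/mL stem cell factor (SCF), heparin and antibiotics among its additives. Stem cells were sorted at every time point, polyadenylated RNA was made into Smart-seq2 libraries, and ERCC spike-in RNA was added, in equal amount per the labels. The labels give long-term haematopoietic stem cells as the cell type, while the sample titles name 32D, a myeloid cell line, and this was not resolved. The allele, any Cre driver, the age and sex of the mice and the number of animals behind a sample were not given in the sources used here.

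Files held 9142413 to 17274128 counts each, of which the members took 13147 to 95136. The 2 files of every group name the same alignment in their headers, and over genes they differed by a chi-square of 1.43 to 1.81 per degree of freedom, against 47.9 to 256 between neighbouring times. The p-values below therefore measure the spread between such files, although the labels call them biological replicates. Nat10 itself, in CPM (counts scaled to a common library size after adjustment by the trimmed mean of M values, TMM), at 0 h measured 88.3 and 91.3 in libraries labelled Nat10-deficient, against 71.8 and 71.0 in those labelled WT. At 1 h it measured 72.3 and 76.5 against 78.2 and 83.8, at 3 h 98.3 and 101 against 46.5 and 39.5, and at 5 h 137 and 152 against 38.5 and 35.2. Gene-level Nat10 counts were thus not lower in libraries labelled Nat10-deficient at 0, 3 and 5 h, so genotype is given below as labelled. ERCC counts were 3819 to 19021 in files labelled Nat10-deficient and 204836 to 384621 in files labelled WT. Whether the amounts added were equal was not tested, and every ERCC-scaled value below rests on it. Immunoglobulin genes and Jchain took 7.0 and 6.96%, 9.81 and 9.78%, 27.5 and 27.3%, and 4.34 and 4.31% of gene counts at 0, 1, 3 and 5 h in files labelled Nat10-deficient, against 3.94 and 3.91%, 28.0 and 27.8%, 55.2 and 54.9%, and 66.7 and 66.4% in files labelled WT. All 17 stem cell marker genes had counts in every group, but few for some: Hoxb5 had 3 and Slamf1 17 at 5 h in the group labelled Nat10-deficient, against 5 and 195 in WT.

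In mammals the small subunit binds the mRNA and the decoding site, and the large subunit joins amino acids and feeds the new chain to the inner membrane, where nearly all products become parts of the respiratory chain and ATP synthase. Many subunits have bacterial counterparts, while others were added in the mitochondrial lineage. Symbols do not always give the subunit: in structures of the mammalian mitoribosome Mrps30 and Mrps18a lie in the large subunit, and Mrps36 is known as a component of the alpha-ketoglutarate dehydrogenase complex. Blood stem cells are known to rely more on glycolysis than their progeny, which draw more on oxidative phosphorylation.

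At 0 h the members spanned a wide range of levels, and their order was nearly the same in both genotypes. Per kb of exon, the median member had 14.3 TMM-scaled CPM in libraries labelled Nat10-deficient and 11.2 in those labelled WT, against medians of 0.560 and 0.677 over all 25081 genes tested and 73.8 and 55.5 over 81 cytosolic ribosomal protein genes. Mrpl12, a stalk protein of the large subunit that also binds the mitochondrial RNA polymerase, had the highest level per kb, 128 in libraries labelled Nat10-deficient and 81.2 in those labelled WT. It was followed by Mrpl34 at 98.0 and 67.3, Mrps28 at 93.7 and 60.1, Mrpl36 at 84.4 and 47.9, and Mrpl2 at 66.6 and 54.1 per kb. Mrpl2 lies near the peptidyl transferase centre, and Mrps28 is the only one of these 5 named for the small subunit. In WT, Mrpl2 stood above Mrpl36, the reverse of their order in libraries labelled Nat10-deficient.

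At the low end were Mrps34 at 0.422 and 0.424 per kb, Mrpl13 at 1.14 and 1.14, Mrpl58 at 2.15 and 1.37, Mrps25 at 2.35 and 1.81 and Mrps35 at 2.31 and 1.92, with the libraries labelled Nat10-deficient first in each pair. Mrpl58 is a peptidyl-tRNA hydrolase that became a part of the large subunit. Counts of Mrps34 were 14 and 23 in libraries labelled Nat10-deficient and 25 and 8 in those labelled WT, too few to separate the genotypes. For Mrps34 77.8% and for Mrps25 69.8% of exonic bases overlap other genes, and fragments were counted without strand, so these levels are uncertain. Across the 77 members the levels per kb in the 2 genotypes had a Spearman rho of 0.986, a description over genes that share libraries and length.

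**Figure D1:**
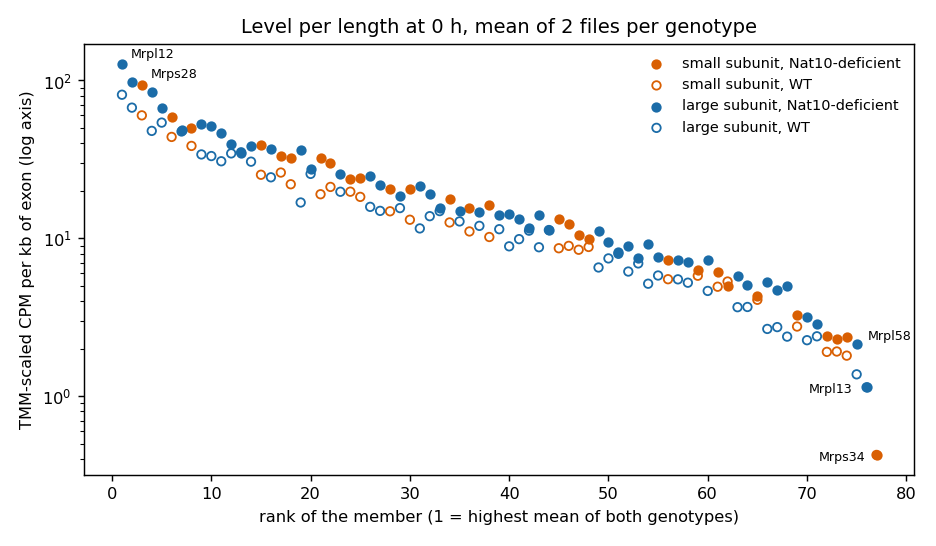
Level of each of the 77 tested members at 0 h in TMM-scaled CPM per kb of exon (log axis), ranked by the mean of both genotypes; filled points are libraries labelled Nat10-deficient, open points WT, orange small and blue large subunit by symbol, each the mean of 2 files. The ranking runs to Mrpl12 at 128 and 81.2 at the high end and Mrps34 at 0.422 and 0.424 at the low end, and small and large subunit members are mixed throughout.

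Small and large subunit members were present at like levels per kb. At 0 h the median small subunit member had 15.7 and the median large subunit member 14.2 in libraries labelled Nat10-deficient, and 10.2 and 11.4 in those labelled WT. The ratio of the small to the large median was 1.06 and 1.12 in the 2 files labelled Nat10-deficient at 0 h, against 0.912 and 0.891 in the files labelled WT. At 1 h this ratio was 0.845 and 0.844 against 0.867 and 0.926, at 3 h 0.787 and 0.818 against 0.653 and 0.811, and at 5 h 0.812 and 0.839 against 0.912 and 0.898. The files labelled Nat10-deficient were thus above WT at 0 h only, below WT at 1 and 5 h, and overlapped the WT range at 3 h. With Mrps30 and Mrps18a counted as large and Mrps36 as neither, the ratio at 1 h was 0.921 and 0.885 against 0.868 and 0.977 in WT, so that the genotypes overlapped there too. Small subunit members took 36.1 to 36.5% of the summed CPM of all members in the files labelled Nat10-deficient and 33.7 to 38.3% in the WT files, with no test run on this share. At 0 h the share was 36.5 and 36.46% in the files labelled Nat10-deficient, between the 36.75 and 35.96% of the WT files. The higher ratio of medians at 0 h was thus not seen in the share. The 3 paralogs that share the name Mrps18 differed widely in level: at 0 h Mrps18a had 88.5 and 90.1 CPM in libraries labelled Nat10-deficient against 69.6 and 65.5 in WT, Mrps18b had 14.7 and 15.8 against 11.5 and 11.5, and Mrps18c had 22.4 and 21.8 against 17.3 and 14.6.

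At 0 h 63 of the 77 members were higher in libraries labelled Nat10-deficient than in WT and 0 were lower (edgeR quasi-likelihood test, Benjamini-Hochberg adjusted p under 0.05). Over all genes tested, 36.0% were called higher and 24.2% lower. The members' median log2 difference was 0.43, against 0.10 for all genes. Among small subunit members 24 of 29 were called higher, with a median of 0.40, and among large subunit members 39 of 48, with a median of 0.46. In these bulk libraries a different make-up of cells and a different RNA content per cell cannot be told apart.

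The 4 widest differences at 0 h were those of members named for the large subunit, which make up 48 of the 77 tested. Mrpl46 measured 49.2 and 53.0 CPM in libraries labelled Nat10-deficient, against 23.4 and 24.3 in WT, a log2 difference of 1.10 ± 0.074 (SE; edgeR adjusted p = 2.26e-34). Mrpl47, which sits near the exit of the nascent chain tunnel, measured 21.8 and 22.2 CPM against 11.2 and 9.84, a log2 difference of 1.06 ± 0.11. In both genes the 2 files of each genotype lay close together and the genotypes did not overlap. Mrpl48 (log2 difference 0.99 ± 0.074) and Mrpl11 (0.89 ± 0.059), a protein at the base of the stalk, came next. Mrpl12 and Mrpl34, the members with the highest levels per kb, had log2 differences of 0.66 ± 0.036 and 0.54 ± 0.059. The 3 Mrps18 paralogs were all called higher, by 0.40 ± 0.050 for Mrps18a, 0.41 ± 0.12 for Mrps18b and 0.47 ± 0.10 for Mrps18c.

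The 14 members not called at 0 h included Mrps30, at 34.9 and 31.8 CPM in libraries labelled Nat10-deficient and 36.1 and 34.9 in WT (log2 difference -0.09 ± 0.075), and Mrps36, at 5.68 and 5.32 against 5.19 and 5.20 (0.08 ± 0.18). Mrps18a, the other member whose symbol does not match its place in the ribosome, was called higher.

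With libraries scaled on 38 long-lived reference mRNAs instead of TMM, 31 members were called higher and 12 lower at 0 h, with a median of 0.09 (all genes -0.07), and with the 2 files of a group summed into 1 library and straight lines over time, 0 were called in either direction by edgeR, with 9 at an unadjusted p under 0.05. That summed fit counts departures from the lines as spread, with a median coefficient of variation of 0.983, against 0.136 between files. It cannot decide on differences of this size. The shares of all genes called with the long-lived scaling are not given here, so its counts stand without a background share. Markers moved with the genotype at 0 h: summed over 17 stem cell markers, 1619 and 1621 CPM were counted in libraries labelled Nat10-deficient against 2578 and 2576 in WT, and over 24 cell cycle genes 4608 and 4611 against 2744 and 2727. Sums for markers of other cell types were also higher in libraries labelled Nat10-deficient. The 13 plasma and B cell markers summed to 5156 and 5166 CPM in libraries labelled Nat10-deficient against 2656 and 2648 in WT (Pax5 and Mzb1 at 0 in WT), and 12 neutrophil and monocyte markers to 8881 and 8814 against 4831 and 4812. The 11 mast cell and basophil markers summed to 413 and 403.9 against 119 and 123 CPM, 11 erythroid markers to 1330 and 1340 against 719 and 690.2, and 7 megakaryocyte markers to 329 and 342 against 274 and 279 (Gp1bb at 0 in both, Gp6 in WT). Genes within some lists went both ways. Of the neutrophil and monocyte markers, Mpo (log2 difference 1.05) and Elane (0.98) were higher, and Ltf (-2.01), Ngp (-1.08) and Lyz2 (-0.34) lower. Of the erythroid markers, Car1 (1.05) was higher and Alas2 (-2.11) lower. Of the megakaryocyte markers, Pf4 (0.54) was higher and Gp9 (-0.89) lower. The part of all these markers in the members' difference was not tested.

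The difference between genotypes was present at every later time. At 1 h 72 members were higher in libraries labelled Nat10-deficient and 0 lower, against 32.4% and 31.8% of all genes, with medians of 0.80 for the members and 0.00 for all genes. At 3 h 69 were higher and 0 lower, against 30.4% and 37.0% of all genes, with medians of 0.74 and -0.07. At 5 h 70 were higher and 1 lower, against 34.2% and 30.1% of all genes, with medians of 0.99 and 0.10. Called higher at all 4 times were 51 of the 77 members, 20 small and 31 large, against 8.90% of all genes tested. Scaled on long-lived mRNAs the counts at 1 h were 52 higher and 3 lower, those at 3 h 27 and 12, and those at 5 h 68 and 1. The members' medians were then 0.34, 0.08 and 0.79, and the shares of all genes in this scaling are not given here. Scaled on ERCC counts all 77 were higher at each time by medians of 6.20 to 6.63, when the median of all genes was also 5.19 to 6.24 higher.

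The marker sums at 1, 3 and 5 h are given as ranges over the files, and some changed order between times. Stem cell markers were close at 3 h, at 1149 and 1185 CPM in libraries labelled Nat10-deficient against 1117 and 1092 in WT. Mast cell and basophil markers were lower at 1 h in libraries labelled Nat10-deficient, at 867 and 846 against 1015 and 1023. Plasma and B cell markers, higher in those libraries at 0 h, were lower there at each later time. Stem cell markers summed to 500.4 to 1416 CPM in libraries labelled Nat10-deficient and 1092 to 2339 in WT, cell cycle genes to 4571 to 6747 and 2116 to 2720, and plasma and B cell markers to 4077 to 31801 and 20767 to 167769. Neutrophil and monocyte markers summed to 10547 to 20907 and 3292 to 13083 CPM, mast cell and basophil markers to 846 to 4577 and 718 to 1023 (Cma1 at 0 in WT, with Tpsb2 at 1 and 5 h), erythroid markers to 1865 to 5322 and 609.9 to 1440, and megakaryocyte markers to 350.3 to 411 and 92.7 to 199 (Gp1bb at 0 in both; in WT also Treml1 at 3 and 5 h, and Ppbp and Gp6 at 5 h). The neutrophil and monocyte markers went both ways at 5 h. In libraries labelled Nat10-deficient, Mpo (log2 difference 0.39), Elane (0.43), Ctsg (0.42), Prtn3 (0.24) and Csf1r (2.38) were higher. Lower there were Ngp (-6.99), Camp (-4.18), S100a9 (-3.80), Ltf (-2.45), Ly6c2 (-2.33), S100a8 (-2.32) and Lyz2 (-1.02). The part of all these markers in the later differences was not tested either.

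**Figure D2:**
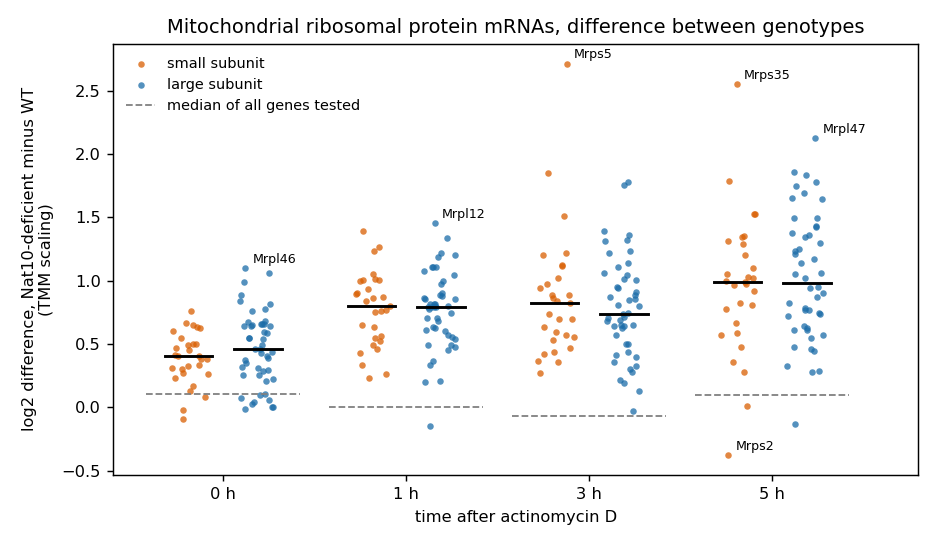
Log2 difference between libraries labelled Nat10-deficient and WT at 0, 1, 3 and 5 h (TMM scaling) for 29 small (orange) and 48 large (blue) subunit members; black lines are the medians of each subunit and dashed grey lines the median of all genes tested. Most members lie above the dashed line at each time, Mrps5 at 3 h and Mrps35 at 5 h stand highest, and Mrps2 at 5 h is the 1 member called lower (with ERCC scaling it lies above 0).

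Small and large subunit members had close medians at each later time as well, with no test run between them. Medians were 0.80 for both subunits at 1 h, 0.82 for small and 0.74 for large at 3 h, and 0.99 for both at 5 h. Called higher at 1 h were 27 of 29 small and 45 of 48 large members, at 3 h 27 small and 42 large, and at 5 h 25 small and 45 large.

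The members with the widest differences changed from time to time. At 1 h Mrpl12 measured 230 and 229 CPM in libraries labelled Nat10-deficient against 84.2 and 83.2 in WT, a log2 difference of 1.46 ± 0.041 (edgeR adjusted p = 9.29e-95). Mrps18c measured 25.3 and 26.1 against 9.88 and 9.68 (1.39 ± 0.12), Mrpl40 54.3 and 53.4 against 22.6 and 19.5 (1.34 ± 0.078), and Mrps27, a pentatricopeptide repeat protein of the small subunit, 28.4 and 29.9 against 11.2 and 13.2 (1.27 ± 0.10). In WT all 4 were lower at 1 h than at 0 h in both files.

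At 3 h Mrps5, a small subunit protein with a bacterial counterpart at the mRNA entry site, measured 128 and 130 CPM in libraries labelled Nat10-deficient and 20.8 and 18.3 in WT, a log2 difference of 2.72 ± 0.077 (edgeR adjusted p = 1.01e-93), the widest of any member at any time. Mrps30 measured 29.2 and 33.2 against 8.22 and 9.09 (1.85 ± 0.14), Mrpl50 32.3 and 30.8 against 9.30 and 9.09 (1.78 ± 0.13), and Mrps31 17.9 and 14.0 against 5.26 and 5.97 (1.51 ± 0.18). The WT libraries at 3 h were the low ones in all 4 genes. For Mrps5 the WT level was 88.1 and 84.4 CPM before treatment, 76.7 and 68.1 after 1 h, and 90.5 and 101 after 5 h, so that the 3 h files stood apart from every other WT time.

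At 5 h Mrps35, a small subunit protein added in the mitochondrial lineage, measured 32.9 and 32.7 CPM in libraries labelled Nat10-deficient and 6.42 and 4.55 in WT, a log2 difference of 2.55 ± 0.17 (edgeR adjusted p = 2.25e-34). Mrpl47 measured 31.0 and 33.1 against 7.43 and 7.24 (2.13 ± 0.16), Mrpl52 18.6 and 18.6 against 5.91 and 4.14 (1.86 ± 0.20), and Mrpl38 80.2 and 85.5 against 23.1 and 23.4 (1.83 ± 0.096). WT counts at 5 h were few for Mrpl52 (35 and 20), Mrps35 (38 and 22) and Mrpl47 (44 and 35). In Mrps35, Mrpl47, Mrpl52 and Mrpl38 alike, the libraries labelled Nat10-deficient were well above both WT files. Mrps2, a small subunit protein with a bacterial counterpart, was the exception: it measured 25.4 and 24.9 CPM in libraries labelled Nat10-deficient and 33.6 and 31.6 in WT, a log2 difference of -0.38 ± 0.11 (edgeR adjusted p = 0.00123). At 0, 1 and 3 h Mrps2 had been higher, at 47.3 and 46.9 against 30.4 and 29.1, 40.2 and 40.9 against 26.7 and 29.1, and 37.4 and 32.4 against 19.8 and 23.3. Leaving out either WT file at 3 h or at 5 h ended the call for Mrps2 at 5 h, with adjusted p of 0.0774 and 0.0775 (3 h) and 0.367 and 0.099 (5 h).

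**Figure D3:**
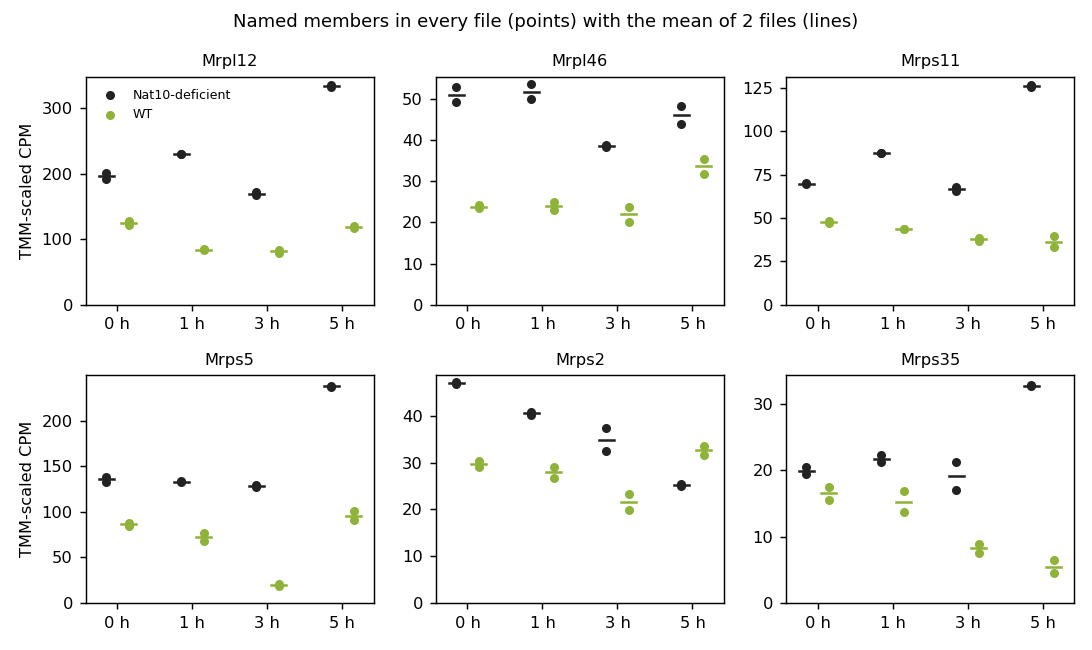
TMM-scaled CPM of 6 members in each file at 0, 1, 3 and 5 h; black points are libraries labelled Nat10-deficient, green points WT, and short lines the mean of 2 files. Mrps5 in WT dips to 20.8 and 18.3 at 3 h, Mrps35 in WT is at 6.42 and 4.55 at 5 h, and Mrps2 is the 1 panel in which WT is the higher genotype at 5 h (under TMM scaling; with ERCC scaling it is lower).

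The paralogs and the members whose symbol and place differ parted after 0 h. Mrps18c, which takes the place of the bacterial counterpart in the small subunit, was at 26.6 and 34.9 CPM at 5 h in libraries labelled Nat10-deficient against 12.2 and 8.89 in WT (log2 difference 1.53 ± 0.15), and Mrps18a at 112 and 117 against 58.8 and 55.4 (1.00 ± 0.068). Mrps18b, at 16.9 and 21.7 against 16.9 and 14.9 CPM, was not called at 5 h (0.28 ± 0.15); its lower file labelled Nat10-deficient and its higher WT file were equal after rounding. Mrps36 was at 13.1 and 11.1 CPM against 4.56 and 3.72 at 5 h (1.53 ± 0.24), after no call at 0 h, and Mrps30 at 59.9 and 57.6 against 23.1 and 23.2 (1.34 ± 0.10). Mrps34 was called at none of the 4 times; its log2 differences were -0.02 ± 0.45, 0.43 ± 0.44, 0.89 ± 0.56 and 0.36 ± 0.53, errors that leave changes of this size undetectable at its depth.

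Relative to the other mRNAs of the same cells (TMM scaling), the course of the members differed between genotypes and times. In libraries labelled Nat10-deficient more members were higher than lower at 1 and 5 h, and the counts at 3 h were near even. In WT more were lower than higher at 1 and 3 h, and the counts at 5 h were near even. In libraries labelled Nat10-deficient, 35 members were higher and 5 lower at 1 h than at 0 h, against 23.2% and 26.7% of all genes, with a median of 0.18; without the second file labelled Nat10-deficient at 0 h, or any 1 WT file at 3 or 5 h, 2 or 3 were lower. At 3 h 24 were higher and 22 lower, against 29.1% and 31.5%, with a median of -0.05 that became 0.06 with DESeq2 size factors. At 5 h 64 were higher and 7 lower, against 31.8% and 33.6%, with a median of 0.64 that became -0.07 when scaled on long-lived mRNAs and -2.08 on ERCC counts; without the second file labelled Nat10-deficient at 5 h, or any 1 WT file at 3 or 5 h, 1 to 4 were lower.

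In WT libraries 10 members were higher and 38 lower at 1 h than at 0 h, against 29.7% and 31.6% of all genes, with a median of -0.13; 6 were higher without the first WT file at 1 h. At 3 h 7 were higher and 47 lower, against 39.1% and 33.2%, with a median of -0.32; DESeq2 size factors gave 14 and 23, and leaving out the first or second WT file at 3 h gave 29 or 30 lower. At 5 h 23 were higher and 21 lower, against 30.2% and 34.1%, with a median of 0.07 that became -0.78 when scaled on long-lived mRNAs and -2.14 on ERCC counts. The times at which immunoglobulin genes took 27.8 to 66.7% of WT counts are these same later times; with those genes left out before scaling, the WT counts were 10 and 38, 7 and 50, and 27 and 20.

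Per unit of ERCC spike-in, every tested member fell over the 5 h in both genotypes. Summed over members, the count per ERCC count was at 44.7 and 44.3% of its 0 h mean after 1 h, 27.2 and 27.0% after 3 h and 24.0 and 25.2% after 5 h in libraries labelled Nat10-deficient. In WT it was at 45.8 and 45.7%, 33.8 and 33.8%, and 22.2 and 22.5%. The genotypes were thus close at 1 h and 5 h, and WT retained more at 3 h. Small and large subunit members kept together: the medians at 5 h were 22.1 and 24.5% for small and 22.9 and 23.8% for large members in the 2 files labelled Nat10-deficient, against 22.2 and 23.2% for small and 21.5 and 22.6% for large members in WT.

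The first hour held the steepest step. From 0 to 1 h all 77 members were lower in both genotypes, with a median ratio of 0.445 in libraries labelled Nat10-deficient and 0.474 in WT. Of all 25081 genes tested, 20435 were lower in libraries labelled Nat10-deficient and 16529 in WT. From 1 to 3 h all 77 were lower in libraries labelled Nat10-deficient (median ratio 0.611) and 66 in WT (0.747), against 16323 and 12946 of all genes. From 3 to 5 h 56 were lower in libraries labelled Nat10-deficient (median ratio 0.865) and 70 in WT (0.671), against 17826 and 19426 of all genes. The remaining members were higher at the later time, although transcription was blocked: 21 members at 5 h in libraries labelled Nat10-deficient, 15 of them without overlap of the files, when 24.1% and 16.7% of all genes did so. In WT 11 were higher at 3 h than at 1 h, 8 without overlap, against 43.9% and 36.2% of all genes, and 7 were higher at 5 h than at 3 h, 4 without overlap, against 16.1% and 11.3%. Those 4, named after their values were seen, were Mrps5 (10.5 and 9.30% of the 0 h mean at 3 h, 22.4 and 25.5% at 5 h), Mrps30 (10.1 and 11.2%, then 13.9 and 14.2%), Mrpl50 (12.1 and 11.9%, then 18.2 and 16.6%) and Mrpl58 (32.1 and 16.3%, then 35.5 and 34.4%). Mrpl58 had WT counts of only 25 and 12 at 3 h and 45 and 35 at 5 h, so its rise is uncertain.

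**Figure D4:**
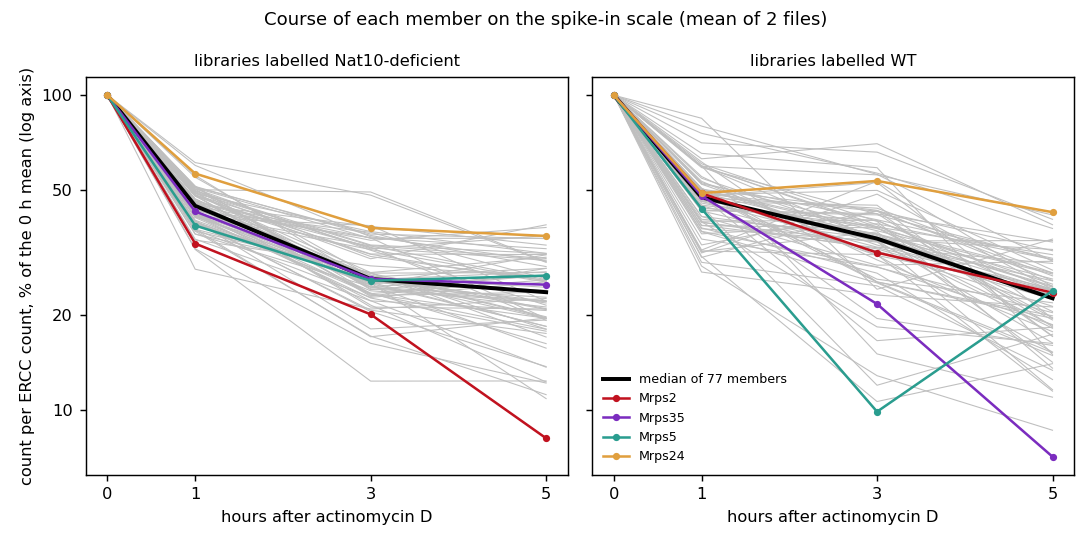
Count per ERCC count as a percentage of the 0 h mean (log axis) at 0, 1, 3 and 5 h in libraries labelled Nat10-deficient (left) and WT (right); grey lines are the 77 tested members, the black line their median and coloured lines 4 named members, each the mean of 2 files. All lines fall in the first hour; Mrps2 reaches 8.06 and 8.21% in libraries labelled Nat10-deficient at 5 h, and Mrps35 reaches 8.26 and 5.96% in WT.

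As straight lines on this scale, the slopes were below 0 for all 77 members in both genotypes (edgeR adjusted p under 0.05). In libraries labelled Nat10-deficient 71.3% of all genes had such a slope and 3.19% the opposite one, and in WT 57.4% and 11.1%. The median member fell by 0.38 log2 units per hour in libraries labelled Nat10-deficient (slope -0.38, all genes -0.48) and by 0.39 in WT (slope -0.39, all genes -0.36). Expressed as half-lives, the median was 2.66 h in libraries labelled Nat10-deficient, with a range of 1.52 to 4.18 h, and 2.59 h in WT, with a range of 1.38 to 5.26 h. Small and large subunit medians were 2.68 and 2.61 h in libraries labelled Nat10-deficient and 2.59 and 2.62 h in WT. These values describe the whole 5 h, although the fall was not log-linear. Plasma and B cell markers changed on this scale too. Jchain had a slope of 0.77 in WT and -0.41 in libraries labelled Nat10-deficient, and Irf4 had -0.31 and -1.37. Loss of mRNA and a changing make-up of cells cannot be told apart in these slopes and half-lives. With TMM scaling, relative to the other mRNAs, slopes were called above 0 for 60 members and below 0 for 8 in libraries labelled Nat10-deficient, and for 29 and 22 in WT. The shares of all genes above are for ERCC scaling and do not apply to these counts.

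Among members with a mean log2 CPM of at least 3, the steepest slopes in libraries labelled Nat10-deficient were those of Mrps2 (-0.66 ± 0.015 log2 per hour), Mrps31 (-0.58 ± 0.020), Mrpl1 (-0.58 ± 0.017) and Mrpl50 (-0.56 ± 0.014). In WT they were those of Mrps35 (-0.73 ± 0.032), Mrps31 (-0.67 ± 0.030), Mrpl52 (-0.65 ± 0.038) and Mrps17 (-0.57 ± 0.020). Mrps31 alone stood on both lists. Below that level Mrpl20 (-0.60 ± 0.039) and Mrpl43 (-0.59 ± 0.033) were the steepest after Mrps2 in libraries labelled Nat10-deficient. At the other end Mrpl37 had the longest half-life in libraries labelled Nat10-deficient, 4.18 h against 2.99 h in WT, and Mrps24 the longest in WT, at 3.60 h in libraries labelled Nat10-deficient against 5.26 h. Across the 77 members the slopes in the 2 genotypes had a Spearman rho of 0.344, given as a description.

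The members did not share a direction in the difference between genotypes. The slope in libraries labelled Nat10-deficient minus that in WT had a median of -0.001 over the members and -0.10 over all genes. Called higher (a slower fall per unit of spike-in) were 24 members and lower (a faster fall) 22, against 15.7% and 32.1% of all genes. Whether mRNA loss or a changing make-up of cells gave these differences cannot be told apart. Of small subunit members 9 were called higher and 10 lower, and of large subunit members 15 and 12. With only 0, 1 and 3 h in the slope, 7 were higher and 43 lower. The shares of all genes above do not apply to that slope, so these 2 counts stand without a background share. With the 2 files of a group summed 0 were called in either direction by edgeR, also with 0 at an unadjusted p under 0.05. The summed fit counts departures from straight lines as spread. Its median coefficient of variation was 0.992, against 0.136 between files, so it cannot decide on differences of this size.

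Mrps35 had the largest difference, with slopes of -0.37 in libraries labelled Nat10-deficient and -0.73 in WT (difference 0.36 ± 0.040, edgeR adjusted p = 3.47e-18) and half-lives of 2.72 and 1.38 h. It stood at 24.6 and 25.4% of its 0 h mean at 5 h in libraries labelled Nat10-deficient and at 8.26 and 5.96% in WT, from WT counts of 38 and 22. With only 0, 1 and 3 h in the slope, the Mrps35 difference was 0.107 and was no longer called (edgeR adjusted p = 0.174). Mrpl52 (0.29 ± 0.047), Mrps30 (0.20 ± 0.026) and Mrpl3 (0.18 ± 0.017), a protein next to the peptidyl transferase centre, followed in the same direction. For Mrpl52 the WT counts were few, 22 and 31 at 3 h and 35 and 20 at 5 h.

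In the opposite direction Mrps2 had slopes of -0.66 in libraries labelled Nat10-deficient and -0.38 in WT (difference -0.28 ± 0.026, edgeR adjusted p = 1.98e-25), and half-lives of 1.52 and 2.61 h. It kept 33.6 and 34.0% after 1 h, 21.7 and 18.5% after 3 h, and 8.06 and 8.21% after 5 h in libraries labelled Nat10-deficient, against 46.3 and 51.3%, 29.0 and 34.3%, and 24.1 and 23.1% in WT. Every file labelled Nat10-deficient was below both WT files of its time from 1 h on. Mrpl46 (-0.23 ± 0.024), Mrps22 (-0.20 ± 0.046) and Mrpl57 (-0.20 ± 0.028) moved the same way as Mrps2. Mrps22 had 58 to 63 counts in the WT files at 5 h, fewer than the others. With only 1, 3 and 5 h in the slope, the Mrpl57 difference was -0.072 and was no longer called (edgeR adjusted p = 0.0978).

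**Figure D5:**
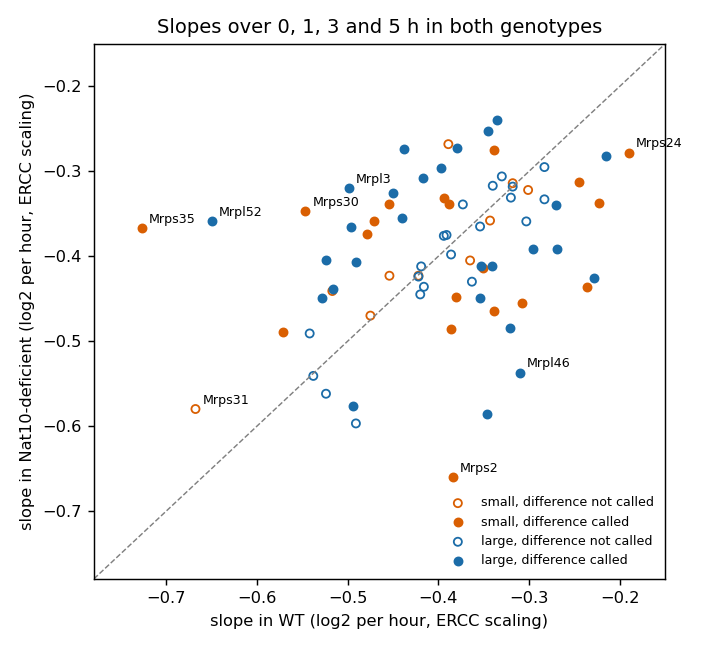
Slope over 0, 1, 3 and 5 h in log2 per hour (ERCC scaling) of each member in WT (horizontal axis) and in libraries labelled Nat10-deficient (vertical axis); filled points are members whose difference in slope was called, orange small and blue large subunit, and the dashed line marks equal slopes. Mrps35 at -0.37 and Mrpl52 lie farthest above the line and Mrps2 at -0.66 farthest below it, followed by Mrpl43.

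The other parts of the mitochondrial translation machinery were counted in the same way at 0 h, when 36.0% of all genes were called higher and 24.2% lower; the genes named from each list are those with the smallest p. Of 5 mitoribosomal proteins with other symbols, 4 were higher in libraries labelled Nat10-deficient and 0 lower, with a median log2 difference of 0.42, including Dap3 (0.71 ± 0.044), a small subunit GTP-binding protein first known from cell death, Ptcd3 (0.41 ± 0.057) and Aurkaip1 (0.37 ± 0.053). Of 26 mitoribosome assembly factors 13 were higher and 1 lower (median 0.24), including Mettl17 (1.28 ± 0.12), Trub2 (0.90 ± 0.087) and the RNA helicase Dhx30 (0.52 ± 0.055). Of 16 translation factors 9 were higher and 3 lower (median 0.25), including the elongation factors Gfm1 (0.93 ± 0.053) and Gfm2 (0.81 ± 0.079) and the mRNA-binding protein Lrpprc (0.49 ± 0.045). Of 17 mitochondrial aminoacyl-tRNA synthetases 7 were higher and 4 lower (median 0.12), including Lars2 (0.47 ± 0.044) and Ears2 (0.80 ± 0.13). Of 10 genes of mitochondrial transcription and RNA processing 5 were higher and 4 lower (median 0.09), including Elac2 (0.69 ± 0.075), while Trmt10c (-0.40 ± 0.046) and Tfb2m (-0.67 ± 0.11) were lower.

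The products and partners of the mitoribosome were counted against the same shares of all genes. Of 13 mRNAs of the mitochondrial genome 12 were higher in libraries labelled Nat10-deficient at 0 h and 0 lower (median 0.89), including mt-Nd2 (1.24 ± 0.036), mt-Nd1 (0.69 ± 0.021) and mt-Nd5 (0.82 ± 0.033), all subunits of complex I. Of 41 nuclear genes of oxidative phosphorylation 39 were higher and 0 lower (median 0.54), including Atp5b (0.60 ± 0.019) and Atp5a1 (0.54 ± 0.024) of ATP synthase and Sdhc (0.94 ± 0.046) of complex II. Of 81 cytosolic ribosomal protein genes 69 were higher and 1 lower (median 0.27). The members' own count at 0 h, 63 of 77 with a median of 0.43, thus lay between those of cytosolic ribosomal proteins and oxidative phosphorylation by median, and no test between lists was run. At 5 h the medians were 0.99 for the members, 0.46 for cytosolic ribosomal proteins, 0.93 for oxidative phosphorylation and 0.30 for the mitochondrial mRNAs. Median ERCC-scaled slopes were -0.44 in libraries labelled Nat10-deficient and -0.24 in WT for the mitochondrial mRNAs, -0.31 and -0.27 for oxidative phosphorylation, and -0.33 and -0.26 for cytosolic ribosomal proteins. In the slope difference 0 mitochondrial mRNAs were called higher and 10 lower, 6 and 19 genes of oxidative phosphorylation, and 0 and 54 cytosolic ribosomal proteins, against the 15.7% and 32.1% of all genes given above.

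The promoters of the members were read to see what they share beyond their names. RefSeq windows of 250 bases before to 50 after the start, in build GRCm38.p6, were matched for 69 of the 78 members. Each of 3 motifs was searched on both strands: CCGGAAG, a core bound by ETS factors, GCGCATGCG, bound by the respiratory factor NRF1, and AAGATGG, bound by YY1. The ETS core was in 26 of the 69 windows (37.7%), against 9.93% of 27025 genes with a window and 41.0% of 61 cytosolic ribosomal protein genes. NRF1 letters were in 7 members (10.1%, all genes 1.95%) and YY1 letters in 13 (18.8%, all genes 7.28%). At least 1 of the 3 was in 55.1% of members and 17.8% of all genes, and no member held all 3. For small and large subunit members the shares were 42.3 and 34.9% for ETS, 3.85 and 14.0% for NRF1, and 23.1 and 16.3% for YY1. These are matches of letters only.

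The windows printed here were chosen to show these motifs and the pair of members with a common start region; motifs of either strand stand in capitals, 5′ to 3′ on the strand of the gene. Mrpl52, whose slope differed between genotypes, held 2 ETS cores and 1 YY1 match (chr14:54426659-54426958, + strand). Mrps27, with a wide difference at 1 h, held 1 of each (chr13:99344536-99344835, + strand). Mrpl32 held most NRF1 matches, 3, of which 2 overlap in 1 run of capitals, and 1 YY1 match (chr13:14612988-14613287, - strand). Mrps11 (chr7:78782881-78783180, + strand) and Mrpl46 (chr7:78783040-78783339, - strand) are transcribed away from each other and their windows overlap; Mrps11 held 1 YY1 match and Mrpl46 none.
Mrpl52: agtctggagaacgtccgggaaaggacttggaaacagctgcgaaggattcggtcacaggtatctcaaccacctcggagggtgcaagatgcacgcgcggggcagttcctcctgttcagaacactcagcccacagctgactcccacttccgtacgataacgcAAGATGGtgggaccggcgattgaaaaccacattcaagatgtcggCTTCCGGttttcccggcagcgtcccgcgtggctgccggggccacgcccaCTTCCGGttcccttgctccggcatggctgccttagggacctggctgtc
Mrps27: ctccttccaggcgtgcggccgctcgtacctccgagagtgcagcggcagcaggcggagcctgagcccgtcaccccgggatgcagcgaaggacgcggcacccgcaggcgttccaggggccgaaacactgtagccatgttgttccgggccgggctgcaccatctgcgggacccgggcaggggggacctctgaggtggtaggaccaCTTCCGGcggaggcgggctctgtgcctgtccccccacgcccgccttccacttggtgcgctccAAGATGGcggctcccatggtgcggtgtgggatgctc
Mrpl32: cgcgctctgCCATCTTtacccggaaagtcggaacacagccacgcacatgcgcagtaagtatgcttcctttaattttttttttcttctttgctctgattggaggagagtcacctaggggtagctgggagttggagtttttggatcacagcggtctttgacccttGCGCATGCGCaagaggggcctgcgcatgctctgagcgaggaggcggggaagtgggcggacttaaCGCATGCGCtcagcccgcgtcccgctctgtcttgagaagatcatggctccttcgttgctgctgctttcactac
Mrps11: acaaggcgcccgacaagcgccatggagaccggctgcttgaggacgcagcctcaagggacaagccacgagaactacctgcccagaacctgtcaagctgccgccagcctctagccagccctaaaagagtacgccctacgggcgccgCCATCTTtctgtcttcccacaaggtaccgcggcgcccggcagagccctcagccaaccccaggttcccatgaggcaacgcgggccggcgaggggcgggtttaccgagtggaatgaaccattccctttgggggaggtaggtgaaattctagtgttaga
Mrpl46: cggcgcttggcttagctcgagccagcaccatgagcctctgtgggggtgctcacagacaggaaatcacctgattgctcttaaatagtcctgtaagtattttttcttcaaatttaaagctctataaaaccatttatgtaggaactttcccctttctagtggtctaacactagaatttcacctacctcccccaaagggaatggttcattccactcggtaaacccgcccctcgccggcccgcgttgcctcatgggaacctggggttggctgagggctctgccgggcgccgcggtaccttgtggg

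Mrpl46 and Mrps11, which share this start region, did not have the same course. In the annotation named in the file headers (GRCm39) Mrpl46 spans chr7:78424984-78433279 on the minus strand and Mrps11 chr7:78432867-78442737 on the plus strand, so that 413 bases lie in both genes; 12.2% of the exonic bases of Mrpl46 and 7.97% of those of Mrps11 are shared, and strand was not used in counting. At 0 h Mrps11, a platform protein of the small subunit, measured 69.7 and 70.0 CPM in libraries labelled Nat10-deficient against 47.4 and 48.2 in WT, a log2 difference of 0.55 ± 0.055, above the members' median of 0.43 and narrower than that of Mrpl46 (1.10 ± 0.074). At 5 h the order was reversed: Mrps11 measured 126 and 127 against 39.4 and 33.3 CPM (1.79 ± 0.075), and Mrpl46 48.4 and 44.0 against 31.8 and 35.6 CPM (0.46 ± 0.097). On the ERCC scale Mrpl46 had slopes of -0.54 in libraries labelled Nat10-deficient and -0.31 in WT, and Mrps11 of -0.36 and -0.47, so the slope difference was below 0 for Mrpl46 and above 0 for Mrps11 (0.11).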

How the data were processed

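Each of the 16 libraries had a deposited table of whole-number counts of fragments per gene, made by the authors with featureCounts 1.6.3 without strand, for both-end-mapped pairs over exons of the Ensembl annotation of GRCm39 plus ERCC, per the file headers; the submitters' processing notes also name STAR and DESeq2. The deposited exonic gene length (a score in bases) was used for levels per kb. Symbols were matched for 94.0% of genes. edgeR 4.0.16 quasi-likelihood tests (limma 3.58.1, R 4.3.3) fitted 8 group means to all 16 files after filterByExpr, with TMM factors for comparisons at a time or against 0 h and ERCC totals for slopes, Benjamini-Hochberg adjusted over 25081 genes at 0.05. Scripts were tested on simulated data. Half-life is 1 divided by the log2 loss per hour. Totals of 9142413 to 17274128 counts set the precision, and errors cover the spread between files only. Members and lists were chosen with earlier results of these data known. Members named were the 4 with the widest called difference in each direction per comparison (mean log2 CPM of at least 3), the 5 highest and 5 lowest per kb at 0 h, the Mrps18 paralogs, Mrps30 and Mrps36, with up to 3 genes of smallest p from each pathway list. One gene that this rule names is not reported here. Alternatives were other scalings and filters, DESeq2 1.42.0, summed files, other times, a replicate block and leaving out each file.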

Additional observations from a re-analysis of the deposited data

Results flagged for a closer look

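The change over time on the ERCC scale differed between genotypes, by the test of the difference in slope itself, for 24 members with a higher slope in libraries labelled Nat10-deficient than in WT and 22 with a lower one (edgeR adjusted p under 0.05). The 4 named members with a higher slope were Mrps35 (difference 0.36 log2 per hour), Mrpl52 (0.29), Mrps30 (0.20) and Mrpl3 (0.18). The 4 with a lower slope were Mrps2 (-0.28), Mrpl46 (-0.23), Mrps22 (-0.20) and Mrpl57 (-0.20). Mrps35 was no longer called with only 0, 1 and 3 h in the slope (0.107), nor was Mrpl57 with only 1, 3 and 5 h (-0.072). In all 8 named members the test rests on the spread between 2 files that name 1 alignment. With such files summed, none of the 77 members was called by edgeR, and 0 had an unadjusted p under 0.05. The summed fit has 4 residual degrees of freedom and counts departures from straight lines as spread. Its median coefficient of variation was 0.992, against 0.136 between files, so it cannot decide on differences of this size. No other measure of the members was taken up here.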

How the results depend on the processing

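Depth limits members with few counts, such as Mrps34, and the WT files at 3 and 5 h, where immunoglobulin genes took most counts. Counts are given as members higher and lower, here and for files left out. The shares of all genes in these settings are not given, so no count here is set against a background share. DESeq2 size factors in edgeR gave 53 and 1 between genotypes at 0 h and 69 and 1 at 1 h; against 0 h in libraries labelled Nat10-deficient they gave 27 and 14 at 3 h and 69 and 1 at 5 h, and in WT 14 and 23 at 3 h and 36 and 14 at 5 h. The DESeq2 test gave 50 and 1, 69 and 1, 24 and 12, 68 and 1, 14 and 22, and 37 and 14 in that order. Scaling on long-lived mRNAs gave 31 and 12, 52 and 3, and 27 and 12 between genotypes at 0, 1 and 3 h, 1 and 55 after 3 h and 21 and 35 after 5 h in libraries labelled Nat10-deficient, and 0 and 67 at 5 h in WT. ERCC scaling gave 77 and 0 between genotypes at 5 h, with Mrps2 at 5.26 instead of -0.38; against 0 h it gave 0 and 76, 0 and 77, and 0 and 77 at 1, 3 and 5 h in libraries labelled Nat10-deficient, and 0 and 74, 0 and 77, and 0 and 77 in WT. With TMM scaling slopes were 60 and 8 in libraries labelled Nat10-deficient, 29 and 22 in WT, and 47 and 6 for their difference. Slope differences over 0, 1 and 3 h were 7 and 43, and over 1, 3 and 5 h, an alternative chosen after seeing the data, 26 and 13. With files of a group summed there were 0 and 0 between genotypes at 0 h, 0 and 49 and 0 and 46 for the slopes in libraries labelled Nat10-deficient and WT, and 0 and 0 for their difference; other comparisons then have 1 library a group and were not run. Without a filter on low counts 6 members were higher in WT at 1 h. Without TMM and immunoglobulin genes the median level per kb at 0 h was 19.3 in libraries labelled Nat10-deficient and 16.7 in WT. With Mrps30 and Mrps18a counted as large and Mrps36 as neither, the small to large ratio was 0.903, 0.828 and 0.849 at 1, 3 and 5 h in libraries labelled Nat10-deficient, and 0.940 and 0.955 at 0 and 5 h in WT. The cause of these shifts was not tested.

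Leaving out each file in turn gave 55 to 63 higher and 0 to 0 lower between genotypes at 0 h, 69 to 73 and 0 to 1 at 1 h, 64 to 69 and 0 to 0 at 3 h, and 70 to 72 and 0 to 1 at 5 h. In libraries labelled Nat10-deficient it gave 30 to 50 and 2 to 5 at 1 h, 19 to 24 and 16 to 22 at 3 h, and 60 to 69 and 1 to 8 at 5 h against 0 h. In WT it gave 6 to 13 and 27 to 38 at 1 h, 6 to 9 and 29 to 50 at 3 h, and 21 to 27 and 14 to 21 at 5 h. Slopes gave 77 lower throughout in libraries labelled Nat10-deficient, 76 to 77 in WT, and 19 to 25 higher and 20 to 22 lower for the difference. The replicate numbers did not pair the files (28 correlations of -0.0079 to 0.021, 0 above 0.1), and with a replicate block the genotype comparison gave 63 and 0 before treatment, 71 and 1 after 5 h, and 25 and 22 for the slope difference. Of 767 repeats for named members, 748 kept direction and side of the threshold, 18 lost the threshold and 1 reversed.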

Other observations

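Members with longer annotated exons tended to have a lower level per kb at 0 h: across the 77 tested members the Spearman rho of level and exonic length was -0.590, a description over genes in which length enters both measures. Exonic bases were shared with another gene in 32 of the 78 members, and in 3 of them, Mrpl53, Mrps34 and Mrps25, over 50% were shared. The 78 members lie on 17 chromosomes.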
